A study of Homo sapiens with 12 samples.

Results

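The genes described here are 34 genes of glucose transport, glycolysis and the response to low oxygen, taken by name from the 26357 gene names that the 4 deposited tables share with agreeing entries. They are the glucose transporters SLC2A1 and SLC2A3, 16 genes of the glycolytic chain and its control (HK1, HK2, GPI, PFKL, PFKM, PFKP, PFKFB3, PFKFB4, ALDOA, ALDOC, TPI1, GAPDH, PGAM1, ENO1, ENO2 and PKM), 5 genes of pyruvate and lactate handling (LDHA, LDHB, PDK1, PDK3 and SLC16A3), HIF1A with the hydroxylase genes EGLN1 and EGLN3, and 8 further targets of the hypoxia-inducible factor (BNIP3, BNIP3L, CA9, VEGFA, ADM, ANKRD37, NDRG1 and KDM3A). RNA was sequenced from HMLE cells, an immortalised line of human mammary epithelial cells, in 4 groups, each with 3 biological replicates. Cells of the HMLE-Twist line carry the Twist gene and are labelled as having passed through an epithelial-mesenchymal transition (EMT), in which epithelial cells lose their junctions and take on mesenchymal traits. HMLE-pBp cells are labelled as not having done so. Each line was given either DMSO (mock) or 0.2 uM salinomycin, a polyether that carries alkali metal ions across membranes and is known for its toxicity to EMT cells, for 24 h. All groups shared a serum-containing mammary medium with insulin and hydrocortisone at 37°C and 5% CO2, and no low-oxygen group was part of the comparison. Each line is a single engineered line, so a difference between the lines is one between these lines, and the promoter that drives Twist is not given in the sources used here.

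Glycolysis takes glucose to pyruvate in the cytosol, and lactate dehydrogenase then converts pyruvate to lactate, which leaves through the transporter that SLC16A3 encodes. The factor HIF is made of an alpha subunit such as HIF1A and the partner ARNT; with oxygen present, prolyl hydroxylases such as EGLN1 and EGLN3 mark the alpha subunit for destruction, and without oxygen it accumulates and raises transcription of many glycolytic genes, of PDK1 and of genes such as VEGFA, CA9 and BNIP3. Control of HIF1A is largely at the protein, which RNA does not measure. In mammary epithelium these genes serve growth and milk sugar synthesis, and cultured lines often run glycolysis strongly with oxygen present.

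HIF binds DNA at a core that reads ACGTG or GCGTG, so the promoters of the genes whose salinomycin response differed between the lines (below) are shown first. RefSeq promoter windows (GRCh38.p14, 250 bases before each annotated start) were found for 30 of the 34 genes. SLC2A3, BNIP3L, VEGFA and NDRG1 were not used in this step. ACGTG on either strand (CACGT on the other) stood in at least 1 window of 18 of these 30 genes (60.0%), against 29.3% of the 8934 tested genes with a window. By window, 21 of 58 (36.2%) held it, against 18.5% of all 35116 windows. GCGTG on either strand was found in 16 of 30 genes (53.3%), against 53.7% of the tested genes. The longer CACGTG, which contains ACGTG on both strands and which E-box factors also bind, was found in 8 of 30 (26.7%), against 11.2%. Of the 11 genes whose response differed between the lines, 9 had a window, and 7 of these 9 held ACGTG. The 7 include GAPDH, whose RefSeq start lies outside the GENCODE transcripts of the gene, while 49 of the 58 windows have a start inside one. Those 7 genes, with HK2 and CA9, which also hold it, are printed below 5′ to 3′ on the gene's strand, with ACGTG or CACGT in capitals. Only stretches with a match are printed. LDHA and PDK1 each have a further window without ACGTG, and HK2 has a further window that holds it. The stretches of 30 bases lie wholly or in part in an annotated exon of another transcript, and the longer runs lie outside annotated exons. PFKFB4 and PGAM1, which complete the 9, held no ACGTG in these windows. PFKFB4 held 1 match of GCGTG, and PGAM1 held neither core. GCGTG, which is not marked in the sequences, stood in 4 of the 9 genes.
ALDOC (chr17:28577116-28577145, minus strand, 250 to 221 bases before the start): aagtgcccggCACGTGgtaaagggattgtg
ALDOC (chr17:28576907-28576936, minus strand, 41 to 12 bases before the start): cccccggaggagtCACGTagctctgcgaca
ENO2 (chr12:6914449-6914478, plus strand, 131 to 102 bases before a start): cacccgcgctcgtACGTGcgcctccgccgg
LDHA (chr11:18394366-18394395, plus strand, 197 to 168 bases before a start): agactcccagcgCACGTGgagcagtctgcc
LDHA (chr11:18394470-18394499, plus strand, 93 to 64 bases before the same start): gactcaCACGTGggttcccgCACGTccgcc
PDK1 (chr2:172556060-172556089, plus strand, 30 to 1 bases before a start): ccctgctgcccgcCACGTccctCACGTacc
EGLN1 (chr1:231422288-231422317, minus strand, 30 to 1 bases before a start): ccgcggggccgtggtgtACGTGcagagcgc
BNIP3 (chr10:131982014-131982173, minus strand, 250 to 91 bases before the start): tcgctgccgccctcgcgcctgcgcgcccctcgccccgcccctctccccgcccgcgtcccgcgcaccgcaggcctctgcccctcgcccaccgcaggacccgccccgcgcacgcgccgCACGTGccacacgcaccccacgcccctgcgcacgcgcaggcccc
GAPDH (chr12:6535142-6535263, plus strand, 122 to 1 bases before a start): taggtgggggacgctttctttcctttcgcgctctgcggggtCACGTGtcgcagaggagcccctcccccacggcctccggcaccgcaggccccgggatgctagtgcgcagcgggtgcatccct
HK2 (chr2:74834920-74835169, plus strand, 250 to 1 bases before a start): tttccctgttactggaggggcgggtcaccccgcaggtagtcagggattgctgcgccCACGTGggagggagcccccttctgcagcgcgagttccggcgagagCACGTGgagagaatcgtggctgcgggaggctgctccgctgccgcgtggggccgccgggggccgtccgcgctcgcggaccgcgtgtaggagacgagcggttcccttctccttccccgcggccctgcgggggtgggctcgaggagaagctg
CA9 (chr9:35673897-35673926, plus strand, 31 to 2 bases before the start): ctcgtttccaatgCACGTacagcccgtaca
A match of these letters is a description of the sequence and not evidence of binding in these cells. Of the 13 genes that rose in HMLE-pBp with salinomycin, 9 had a window, and 7 of these 9 held ACGTG. Of the other 21 genes with a window, 11 held it. GCGTG stood in 5 of those 9 genes and in 11 of those 21. HK2, which rose in HMLE-Twist, holds CACGTG at separate places in the window shown, and CA9 holds CACGT close to its start.

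Levels are given as FPKM, read pairs scaled to transcript length and sequencing depth, brought to a single scale over the 12 libraries; those of the treated libraries were rebuilt from deposited log2 values. The reads recovered for all genes summed to about 17910000 to 26730000 per library. Differences are log2 fold changes of FPKM + 1 with their standard errors (SE) from limma, with p-values adjusted by Benjamini-Hochberg over the 11970 genes tested, and a gene is said to have risen, fallen or differed at an adjusted p under 0.05. The TWIST1 transcript averaged 713 FPKM in mock HMLE-Twist and 910 FPKM with salinomycin, against 2.5 and 2.13 FPKM in HMLE-pBp. The summed level of 10 epithelial markers was 2.44 to 7.7 FPKM in HMLE-Twist and 2135 to 2844 FPKM in HMLE-pBp, and that of 10 mesenchymal markers was 4220 to 6080 and 476 to 604 FPKM. Among the leukocyte markers, PTPRC and CD3E stayed at or near 0, and CD68 and CD14 made up the sums of 18.4 to 41.2 FPKM. The sums of 4 endothelial and 4 adipocyte markers reached at most 1.79 and 4.1 FPKM. With salinomycin in HMLE-pBp the epithelial sum went from 2478 to 2844 FPKM under mock to 2135 to 2308 FPKM. The mesenchymal sum went from 476 to 503 FPKM to 522 to 604 FPKM. Single markers went both ways within these sums. Mean KRT14 went from 878 to 631 FPKM and EPCAM from 244 to 158 FPKM. Mean CDH1 went from 167 to 180 FPKM and ESRP1 from 33.2 to 47.8 FPKM. Mean SPARC went from 204 to 282 FPKM, while FN1 went from 239 to 218 FPKM. In HMLE-Twist the mesenchymal sum went from 4220 to 5314 FPKM under mock to 5304 to 6080 FPKM with salinomycin. Here too single markers went both ways, with mean VIM from 1901 to 2394 FPKM and COL3A1 from 473 to 161 FPKM. The sum of 10 reference genes went from 5858 to 6217 FPKM to 4930 to 5232 FPKM, without overlap. The part of these shifts in the results below was not tested. In these bulk samples, fewer cells of a type and less RNA per cell cannot be told apart.

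All 34 genes passed the filter of at least 1 FPKM in 3 of 12 libraries. EGLN3 passed only through HMLE-pBp, with 1 to 15 reads per mock HMLE-Twist library. ANKRD37 was also thinly covered, and the other 32 genes had over 100 reads in every library. GAPDH, ENO1, LDHA, PKM, TPI1 and LDHB were among the 100 genes highest in mean FPKM. Several of these genes have processed pseudogenes or close relatives (GAPDH, PGAM1, LDHA, ENO1, TPI1, and SLC2A3 with SLC2A14), and how reads shared with such copies were assigned is not given, so their absolute levels are uncertain. Together the 34 genes took up 2.02 to 2.54% of reads in mock HMLE-Twist and 1.48 to 1.56% in mock HMLE-pBp. With salinomycin the shares were 2.1 to 2.19% and 1.73 to 1.81%, so the gap between the lines was narrower in the treated cells. Mock replicate 1 of HMLE-Twist had the lowest level of its group for ALDOA, TPI1, GAPDH, PGAM1, ENO1 and PKM among others. Without it the TPI1 change in HMLE-Twist was -0.43 and called, in place of -0.24 (adjusted p = 0.169), and that of PFKL was -0.00 in place of 0.26, not called either way. In HMLE-pBp, whose libraries share the estimate of spread, HK1, TPI1, GAPDH and CA9 then passed the threshold with changes of 0.19, 0.26, 0.25 and 1.10, as before. Between the mock lines GPI (0.16) and ALDOA (0.30) then passed it. The further calls that its absence changed, of GAPDH, EGLN1, ALDOA, TPI1, CA9 and PFKP, stand beside their results.

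**Figure D1:**
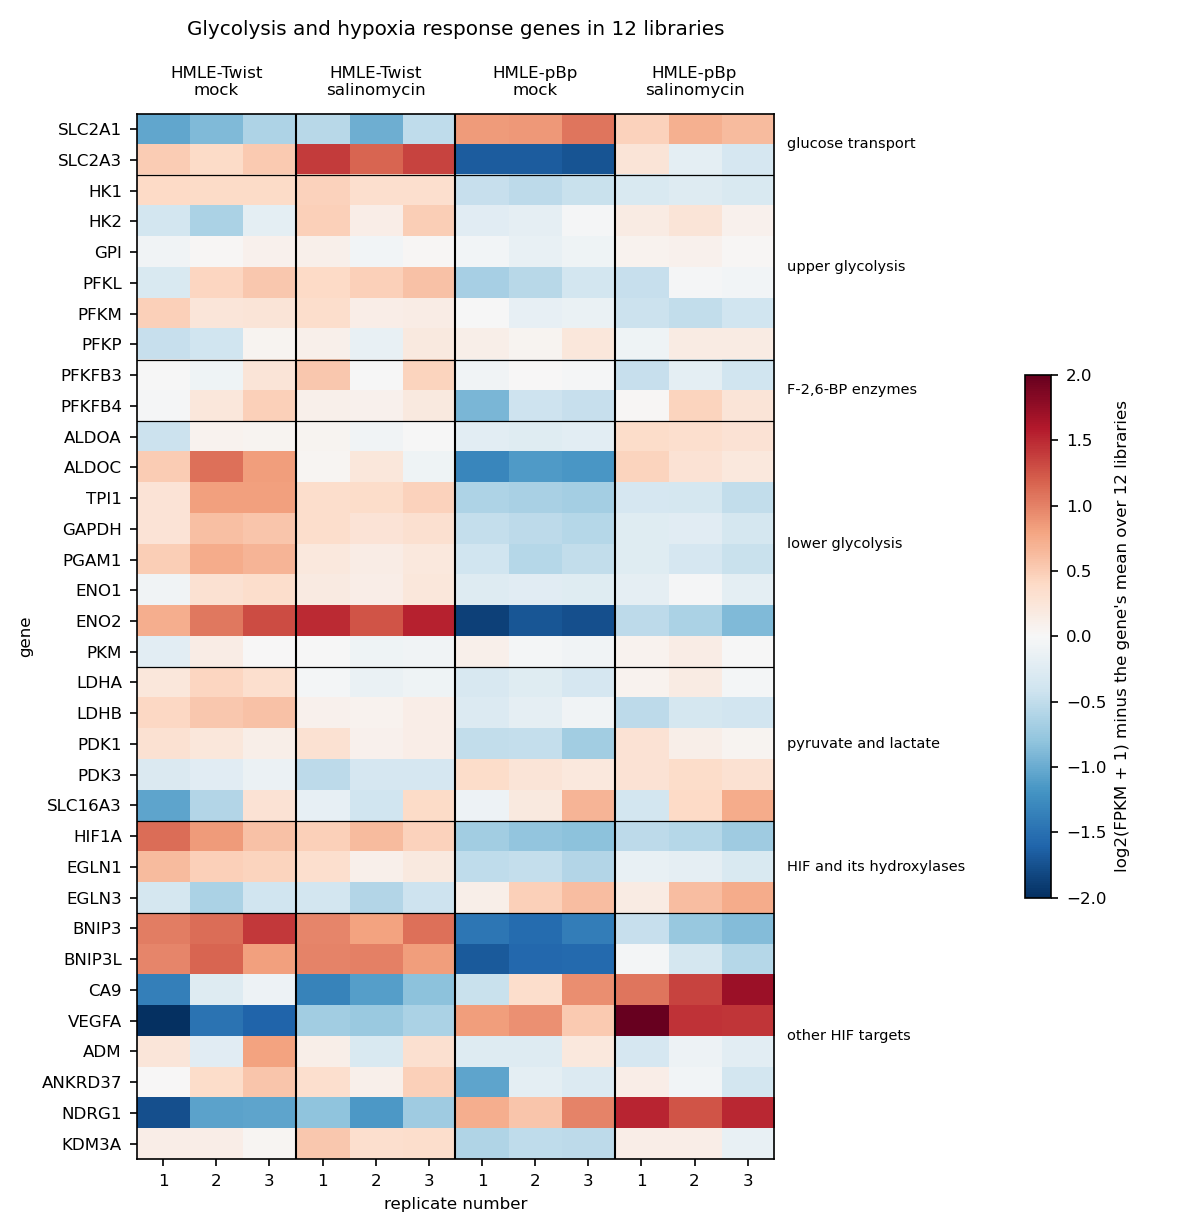
Level of each gene in each of the 12 libraries, as log2(FPKM + 1) minus the gene's mean over the libraries (colour scale), with libraries in columns by group and replicate number and genes in rows by role. Mock HMLE-pBp is low for SLC2A3, ALDOC, ENO2, BNIP3 and BNIP3L, and HMLE-Twist is low for VEGFA, NDRG1 and SLC2A1 under both treatments.

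In HMLE-pBp with salinomycin, 13 of the 34 genes rose and 2 fell. Of all tested genes, 19.1% were called in this comparison, 9.72% higher and 9.37% lower, so the share of the members that rose (38.2%) was above the background and the share that fell (5.88%) was below it. The median change was 0.29 for the members and -0.01 for all genes. In HMLE-Twist 4 genes rose and 5 fell, against 26.2% of all tested genes called, 12.8% higher and 13.5% lower. That is 26.5% of the members, close to the background, with a median change of -0.03. The genes that rose in HMLE-pBp were SLC2A3, PFKFB4, ALDOA, ALDOC, ENO2, LDHA, PDK1, EGLN1, BNIP3, BNIP3L, VEGFA, NDRG1 and KDM3A, and those that fell were PFKM and LDHB. In HMLE-Twist, SLC2A3, HK2, VEGFA and KDM3A rose, and ALDOC, PGAM1, LDHA, LDHB and EGLN1 fell. Of the 7 genes called in both lines, 4 changed in the same direction (SLC2A3, LDHB, VEGFA and KDM3A) and 3 in opposite directions (ALDOC, LDHA and EGLN1).

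The difference of the responses, HMLE-Twist minus HMLE-pBp, was negative and past the threshold for 11 genes and positive and past it for none. Over all tested genes 13.6% were called in this test and 6.62% with a negative difference, against 32.4% of the members. The 11 genes were ALDOC, BNIP3L, BNIP3, PFKFB4, LDHA, SLC2A3, PDK1, ENO2, EGLN1, PGAM1 and GAPDH. The median difference was -0.27 for the members and 0.00 for all genes. Libraries of the same replicate number deviated together within each line, and a fit with the replicate block within each line called more genes of every kind. With the replicate block, 14 members were called in HMLE-Twist (7 higher, 7 lower) against 40.4% of all genes, and 21 in HMLE-pBp (17 higher, 4 lower) against 36.7%. By direction, 19.6% of all genes were higher and 20.8% lower in HMLE-Twist, and 17.4% and 19.3% in HMLE-pBp. The blocked difference called 18 members (3 positive, 15 negative) against 32.5% of all genes, 16.9% positive and 15.6% negative.

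By single pairs of libraries, 25, 30 and 27 of the 34 genes were higher with salinomycin in HMLE-pBp replicates 1, 2 and 3, with median log2 changes of 0.26, 0.30 and 0.16. Over all tested genes 47.9, 49.4 and 47.1% were higher in these pairs, with medians of -0.01, -0.00 and -0.02. In HMLE-Twist 23, 10 and 13 genes were higher, with medians of 0.10, -0.12 and -0.07, and the first of these pairs contains the low mock library described above. Over all tested genes the HMLE-Twist pairs had 47.0, 47.8 and 48.3% higher, with medians of -0.02, -0.01 and -0.01.

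**Figure D2:**
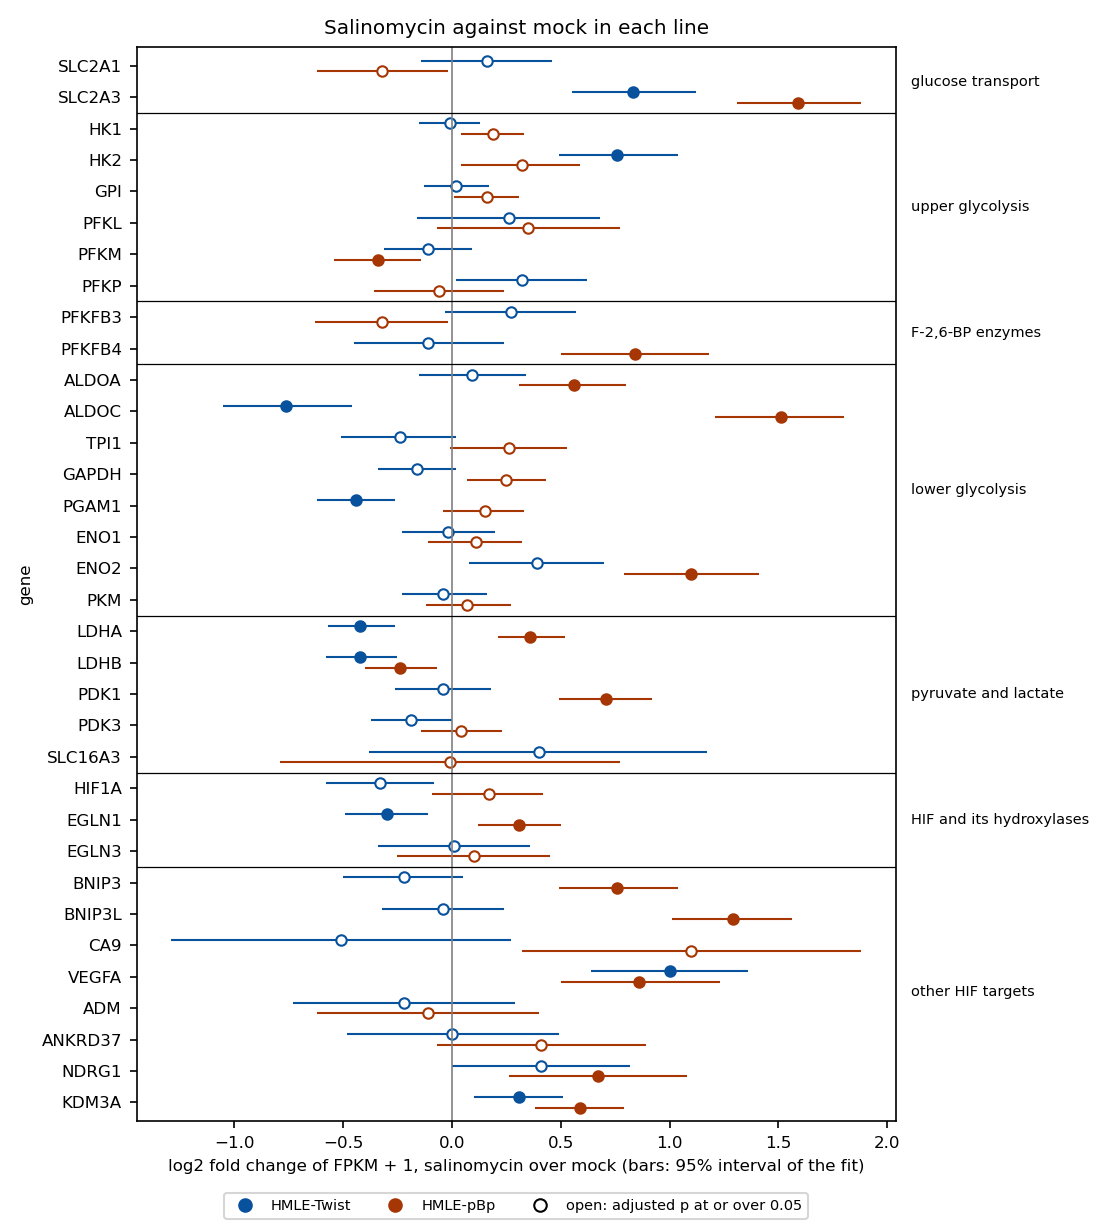
Log2 fold change of FPKM + 1 with salinomycin over mock for each gene (rows), in HMLE-Twist and HMLE-pBp (colours), with bars for the 95% interval of the fit and open points where the adjusted p was not under 0.05. SLC2A3, VEGFA and KDM3A lie to the right of 0 in both lines, and ALDOC, LDHA and EGLN1 lie on opposite sides.

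Of the glucose transporters SLC2A3 rose in both lines, and SLC2A1 was not called in either. SLC2A1 encodes GLUT1, the main basal transporter of cultured cells, and SLC2A3 encodes GLUT3, a transporter of high affinity. SLC2A3 was at 16.8, 15.3 and 17 FPKM in mock HMLE-Twist (replicates 1 to 3 in this order here and below), 31.9, 27 and 30.9 with salinomycin, 2.92, 2.94 and 2.76 in mock HMLE-pBp, and 13.9, 9.85 and 8.87 in treated HMLE-pBp. All 3 treated libraries exceeded all 3 mock libraries in each line. SLC2A3 rose by a log2 fold change of 0.83 ± 0.13 (SE, adjusted p = 0.000822) in HMLE-Twist and by 1.59 ± 0.13 (adjusted p = 2.55e-05) in HMLE-pBp. Its rise was smaller in HMLE-Twist, with a difference of -0.76 ± 0.19 (adjusted p = 0.0211), a call that ended without mock HMLE-pBp replicate 3 (adjusted p = 0.057). SLC2A1 was at 40.3, 44.8 and 54.1 FPKM in mock HMLE-Twist, 56.3, 42.1 and 58.2 with salinomycin, 151, 153 and 176 in mock HMLE-pBp, and 115, 138 and 130 with salinomycin. The treated HMLE-pBp libraries all lay below the mock ones, while the HMLE-Twist groups overlapped. In HMLE-pBp the SLC2A1 change was -0.32 ± 0.14 (adjusted p = 0.122, and 0.0389 with the replicate block), and in HMLE-Twist 0.16 ± 0.14 (adjusted p = 0.429). The blocked test of their difference gave an adjusted p of 0.0342, against 0.116 without the block.

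Of the 6 genes of the upper chain, from hexokinase to phosphofructokinase, HK2 rose in HMLE-Twist and PFKM fell in HMLE-pBp, and none differed in response between the lines without the block. HK2, the inducible hexokinase that traps glucose in the cell, was at 10.8, 8.8 and 12.3 FPKM in mock HMLE-Twist and 20.2, 15.7 and 20.4 with salinomycin, against 11.9, 12.4 and 13.9 in mock HMLE-pBp and 16, 17.1 and 15.1 with salinomycin. The treated libraries exceeded the mock ones in both lines. HK2 rose by 0.76 ± 0.13 (adjusted p = 0.00107) in HMLE-Twist. In HMLE-pBp its change was 0.32 ± 0.13 (adjusted p = 0.0968, and 0.0131 with the replicate block). The HK2 responses differed between the lines by 0.45 ± 0.18, with an adjusted p of 0.113, and 0.0164 with the block. HK1, the hexokinase expressed in most tissues, was at 72.7 ± 0.44 (SD, n = 3) and 72.4 ± 4.09 FPKM in mock and treated HMLE-Twist, and at 39.7 ± 1.28 and 45.3 ± 0.775 FPKM in HMLE-pBp, where the blocked adjusted p was 0.0402 and the unblocked 0.0643. GPI, the isomerase after hexokinase, stayed between 103 and 123 FPKM in all 12 libraries.

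Phosphofructokinase commits sugar to glycolysis and is built from the products of PFKL, PFKM and PFKP. PFKM fell in HMLE-pBp from 21.6 ± 1.38 to 16.8 ± 0.5 FPKM (SD, n = 3; -0.34 ± 0.09, adjusted p = 0.0222). This call ended without mock HMLE-pBp replicate 1 or 3 or treated replicate 1 or 2, with adjusted p between 0.0565 and 0.0728. PFKP averaged 90.8 ± 18.9 FPKM in mock and 113 ± 13.7 FPKM in treated HMLE-Twist (0.32 ± 0.14, adjusted p = 0.106, and 0.0218 with the replicate block). PFKL ranged from 29.8 to 54.3 FPKM among the 3 mock HMLE-Twist libraries, which is wider than its difference from the treated ones.

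PFKFB3 and PFKFB4 make and break down fructose-2,6-bisphosphate, the activator of phosphofructokinase. PFKFB4 was at 8.46, 10.2 and 12.4 FPKM in mock HMLE-Twist, 9.32, 9.12 and 9.96 with salinomycin, 4.09, 6.17 and 5.94 in mock HMLE-pBp, and 8.72, 12.1 and 10.4 with salinomycin. The treated HMLE-pBp libraries reached the range of HMLE-Twist. PFKFB4 rose by 0.84 ± 0.16 (adjusted p = 0.00404) in HMLE-pBp, the change in HMLE-Twist was -0.11 ± 0.16 (adjusted p = 0.676), and the difference was -0.95 ± 0.22 (adjusted p = 0.0186). PFKFB3 went the other way under the block only: from 11.7 ± 1.61 to 14.4 ± 2.93 FPKM in HMLE-Twist (SD, n = 3; adjusted p = 0.171, and 0.0426 with the replicate block) and from 10.9 ± 0.278 to 8.54 ± 0.903 FPKM in HMLE-pBp (adjusted p = 0.118, and 0.0239 with the block). Its difference of 0.60 ± 0.19 had an adjusted p of 0.0628, and 0.00993 with the block.

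Of the 8 genes of the lower chain, from aldolase to pyruvate kinase, 3 rose in HMLE-pBp (ALDOA, ALDOC and ENO2) and none fell, while ALDOC and PGAM1 fell in HMLE-Twist and none rose. Their median change was 0.26 in HMLE-pBp and -0.10 in HMLE-Twist. ALDOC, the aldolase known from brain, was at 33.6, 51 and 42.2 FPKM in mock HMLE-Twist, 23.9, 27.3 and 21.9 with salinomycin, 8.86, 10.1 and 9.87 in mock HMLE-pBp, and 32.1, 28.5 and 27.1 with salinomycin. Neither line's treated libraries overlapped its mock libraries, and the treated libraries of the lines overlapped each other. ALDOC fell by 0.76 ± 0.14 on the log2 scale (adjusted p = 0.00176) in HMLE-Twist and rose by 1.51 ± 0.14 (adjusted p = 4.47e-05) in HMLE-pBp. The difference of -2.27 ± 0.19 (adjusted p = 5.69e-05) was the largest in size among the 34 genes.

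ENO2, the enolase known from neurons, stood at 23.3, 29.7 and 35.4 FPKM in mock HMLE-Twist, 40.2, 34 and 41.5 with salinomycin, 3.01, 3.51 and 3.37 in mock HMLE-pBp, and 9.18, 8.52 and 7 with salinomycin. The HMLE-pBp groups did not overlap, and the HMLE-Twist groups did. ENO2 rose by 1.10 ± 0.14 (adjusted p = 0.000445) in HMLE-pBp, and its change in HMLE-Twist was 0.39 ± 0.14 (adjusted p = 0.0622, and 0.0326 with the replicate block). Its difference of -0.71 ± 0.20 (adjusted p = 0.039) lost the call when any of 9 libraries was left out, with adjusted p from 0.0632 to 0.0892. The call held only without HMLE-Twist mock replicate 1, HMLE-Twist mock replicate 3 or treated HMLE-pBp replicate 3.

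GAPDH, the dehydrogenase of the chain and a common reference gene, was at 2780, 3483 and 3373 FPKM in mock HMLE-Twist, 2921, 2787 and 2884 with salinomycin, 1661, 1600 and 1545 in mock HMLE-pBp, and 1952, 1974 and 1798 with salinomycin. The lines did not overlap under either treatment. The GAPDH changes of -0.16 ± 0.08 in HMLE-Twist (adjusted p = 0.185) and 0.25 ± 0.08 in HMLE-pBp (adjusted p = 0.0529, and 0.0362 with the replicate block) were not called, and their difference of -0.41 ± 0.12 was (adjusted p = 0.0396). Without HMLE-Twist mock replicate 1 the GAPDH change in HMLE-Twist was -0.26 and was called. The difference lost its call when any of 9 libraries was left out, all but HMLE-Twist mock replicate 1, mock HMLE-pBp replicate 1 and treated HMLE-pBp replicate 3, with adjusted p from 0.0546 to 0.1.

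PGAM1, a phosphoglycerate mutase, fell from 187 ± 16.1 to 137 ± 3.59 FPKM in HMLE-Twist (SD, n = 3; -0.44 ± 0.08, adjusted p = 0.00252) and was at 85.3 ± 5.04 and 94.6 ± 7.09 FPKM in HMLE-pBp (0.15 ± 0.08, adjusted p = 0.235). The PGAM1 difference was -0.59 ± 0.12 (adjusted p = 0.00917). ALDOA, the aldolase of muscle and most cultured cells, rose from 343 ± 4.75 to 505 ± 14.5 FPKM in HMLE-pBp (0.56 ± 0.11, adjusted p = 0.00568). TPI1, which interconverts the triose phosphates, was at 800 ± 162 and 665 ± 27.1 FPKM in HMLE-Twist and at 322 ± 6.16 and 386 ± 23.6 FPKM in HMLE-pBp. The blocked test called the difference of response for both, at an adjusted p of 0.0453 for ALDOA and 0.023 for TPI1, against 0.0708 and 0.0753 without the replicate block. Leaving out HMLE-Twist mock replicate 1 moved these differences from -0.47 to -0.63 for ALDOA and from -0.50 to -0.69 for TPI1, both then called. ENO1 and PKM, the abundant enolase and pyruvate kinase genes, were not called in either line, with group means of 810 to 1105 and 730 to 799 FPKM.

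**Figure D3:**
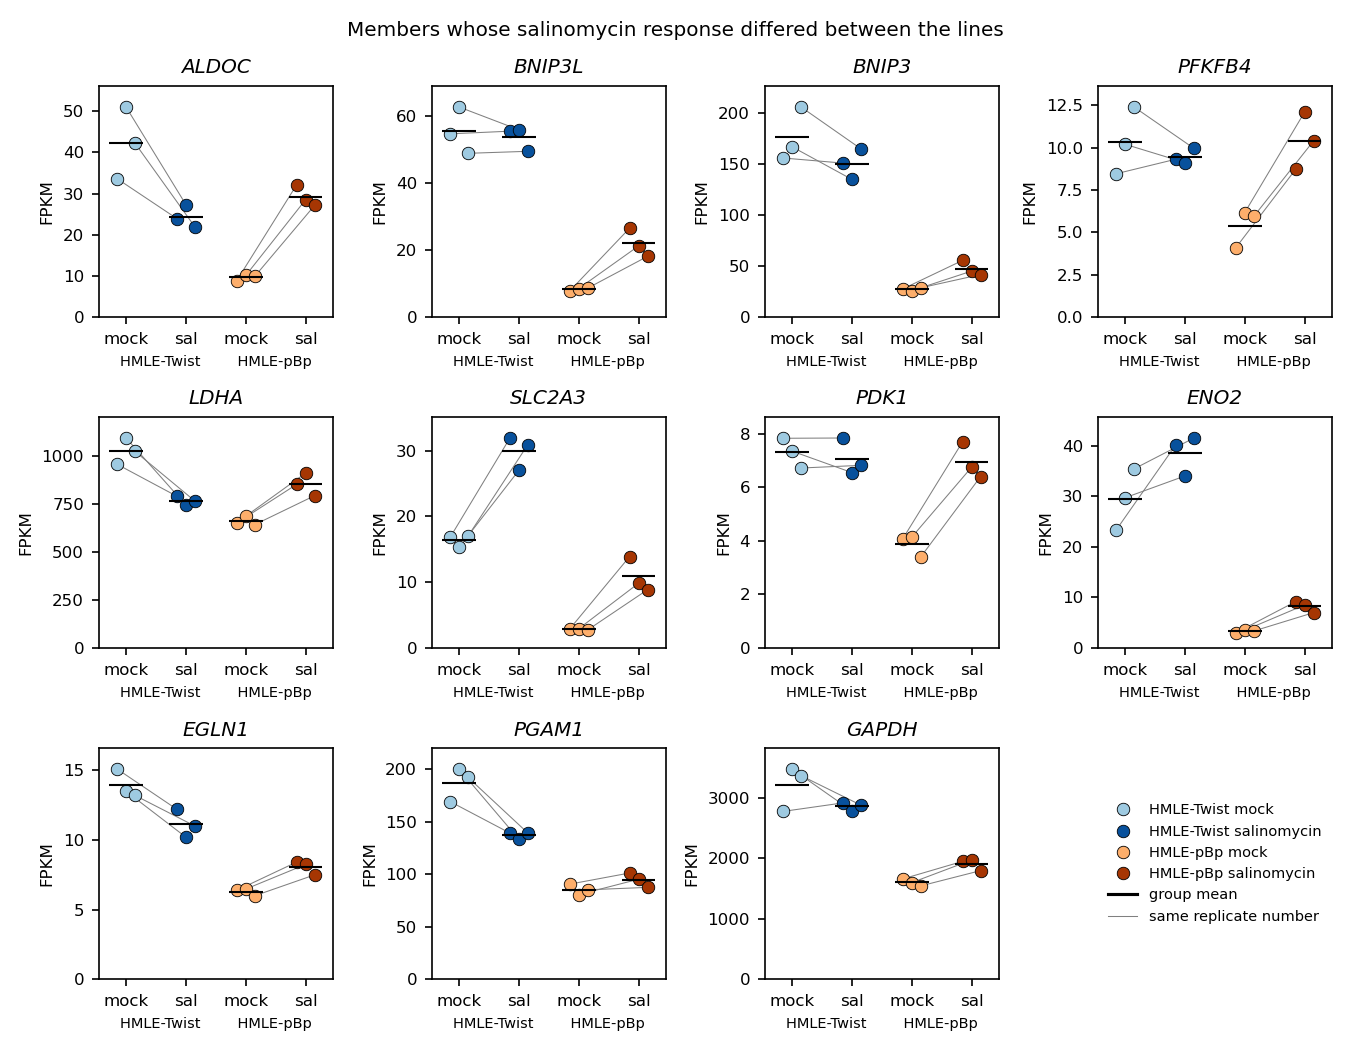
FPKM of the 11 genes whose salinomycin response differed between the lines, each axis starting at 0, with a point per library, black lines for group means and grey lines joining libraries of the same replicate number. ALDOC, LDHA and EGLN1 fall in HMLE-Twist and rise in HMLE-pBp, and BNIP3L, BNIP3, PFKFB4 and PDK1 rise in HMLE-pBp alone at the threshold used.

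The lactate dehydrogenase genes moved apart in HMLE-pBp and together in HMLE-Twist. LDHA encodes the subunit that favours lactate production and LDHB the subunit of heart. LDHA was at 959, 1096 and 1026 FPKM in mock HMLE-Twist, 792, 746 and 767 with salinomycin, 653, 688 and 644 in mock HMLE-pBp, and 854, 913 and 795 with salinomycin. The direction was opposite in the lines, with no overlap between mock and treated libraries in either. LDHA fell by 0.42 ± 0.07 (adjusted p = 0.00146) in HMLE-Twist and rose by 0.36 ± 0.07 (adjusted p = 0.00527) in HMLE-pBp, a difference of -0.78 ± 0.10 (adjusted p = 0.000996). LDHB fell from 723 ± 45.5 to 541 ± 12.9 FPKM (SD, n = 3) in HMLE-Twist (-0.42 ± 0.08, adjusted p = 0.00188) and from 447 ± 31.5 to 378 ± 22.4 FPKM in HMLE-pBp (-0.24 ± 0.08, adjusted p = 0.0455). The LDHB call in HMLE-pBp ended when any of 9 libraries was left out (adjusted p from 0.0564 to 0.186), holding only without HMLE-Twist mock replicate 1, HMLE-Twist mock replicate 3 or mock HMLE-pBp replicate 1. It also ended under 5 other settings listed with the limits.

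PDK1 and PDK3 encode kinases that shut off pyruvate dehydrogenase and so keep pyruvate out of the mitochondrial cycle. PDK1 was at 7.83, 7.35 and 6.72 FPKM in mock HMLE-Twist, 7.84, 6.55 and 6.82 with salinomycin, 4.08, 4.14 and 3.4 in mock HMLE-pBp, and 7.7, 6.75 and 6.4 with salinomycin. Treated HMLE-pBp cells thus overlapped both HMLE-Twist groups. PDK1 rose by 0.71 ± 0.10 (adjusted p = 0.000778) in HMLE-pBp, the change in HMLE-Twist was -0.04 ± 0.10 (adjusted p = 0.812), and the difference was -0.75 ± 0.14 (adjusted p = 0.00688). PDK3 was not called in either line and lay between 0.672 and 2.09 FPKM. Its recovered length of 13136 bases is 5.23 times the closest reference transcript, and that of PDK1, 5825 bases, is 1.95 times. The levels per length of PDK3 and PDK1 are therefore uncertain. SLC16A3, the lactate exporter MCT4, varied more between replicates than between treatments. SLC16A3 was at 55.1, 76.5 and 142 FPKM in mock HMLE-Twist and 103, 87.7 and 152 FPKM with salinomycin. In HMLE-pBp it was at 108, 133 and 187 FPKM under mock and 89.2, 153 and 194 FPKM with salinomycin. SLC16A3, PFKP and CA9 were the 3 members that were highest in replicate 3 of all 4 groups, which held for 11.9% of all tested genes.

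HIF1A itself did not pass the threshold in either line. It was at 157, 131 and 109 FPKM in mock HMLE-Twist, 101, 112 and 99.9 with salinomycin, 44, 41.4 and 40.3 in mock HMLE-pBp, and 49.7, 48 and 43.8 with salinomycin. Groups of the same line overlapped and the lines did not. The HIF1A change was -0.33 ± 0.12 in HMLE-Twist (adjusted p = 0.0549, and 0.0205 with the replicate block) and 0.17 ± 0.12 in HMLE-pBp (adjusted p = 0.334). Their difference was -0.49 ± 0.16 (adjusted p = 0.0655, and 0.0212 with the block). EGLN1, the main oxygen-sensing hydroxylase, fell from 13.9 ± 1.01 to 11.1 ± 1.01 FPKM (SD, n = 3) in HMLE-Twist (-0.30 ± 0.09, adjusted p = 0.023) and rose from 6.28 ± 0.252 to 8.05 ± 0.487 FPKM in HMLE-pBp (0.31 ± 0.09, adjusted p = 0.0265). The difference was -0.61 ± 0.12 (adjusted p = 0.00877), which leaving out single libraries did not end. The EGLN1 fall lost its call without HMLE-Twist mock replicate 1 or treated replicate 2 or 3 (adjusted p from 0.0502 to 0.0997). The rise lost its call without any of the mock HMLE-pBp replicates or treated replicate 1 or 2 (adjusted p from 0.0549 to 0.105). EGLN3, itself a HIF target, stayed at 0.018 to 0.237 FPKM in HMLE-Twist and 0.711 to 1.62 FPKM in HMLE-pBp, with no call for salinomycin at these few reads.

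Among the 8 other HIF targets, 5 rose in HMLE-pBp (BNIP3, BNIP3L, VEGFA, NDRG1 and KDM3A), with a median change of 0.72 over the 8, and 2 rose in HMLE-Twist (VEGFA and KDM3A), with a median of -0.02. BNIP3 and BNIP3L encode related receptors that mark mitochondria for autophagy. BNIP3L was at 54.6, 62.6 and 48.8 FPKM in mock HMLE-Twist, 55.4, 55.8 and 49.4 with salinomycin, 7.8, 8.51 and 8.63 in mock HMLE-pBp, and 26.5, 21.2 and 18.1 with salinomycin. BNIP3 was at 156, 167 and 206 FPKM in mock HMLE-Twist, 151, 135 and 165 with salinomycin, 27.6, 25.8 and 28.7 in mock HMLE-pBp, and 55.6, 45.1 and 41.7 with salinomycin. For both genes treated HMLE-pBp lay above mock HMLE-pBp and below every HMLE-Twist library, and the HMLE-Twist groups overlapped. The recovered length of BNIP3, 1633 bases, is 0.571 times the closest reference transcript, so its level per length is uncertain. BNIP3L rose by 1.29 ± 0.13 (adjusted p = 8.61e-05) in HMLE-pBp and BNIP3 by 0.76 ± 0.13 (adjusted p = 0.00197). The changes in HMLE-Twist were -0.04 ± 0.13 and -0.22 ± 0.13, and the differences were -1.33 ± 0.18 (adjusted p = 0.00129) and -0.99 ± 0.18 (adjusted p = 0.00546).

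VEGFA, the growth factor for blood vessels, rose in both lines from very different levels. It was at 10.5, 15.5 and 14.1 FPKM in mock HMLE-Twist, 27.5, 26.4 and 28.5 with salinomycin, 81.4, 85.8 and 64.9 in mock HMLE-pBp, and 181, 124 and 123 with salinomycin. The 4 groups did not overlap. VEGFA rose by 1.00 ± 0.17 (adjusted p = 0.00115) in HMLE-Twist and 0.86 ± 0.17 (adjusted p = 0.00482) in HMLE-pBp. The difference was 0.14 ± 0.24 (adjusted p = 0.722), with a 95% interval from -0.38 to 0.65.

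CA9, the cell-surface carbonic anhydrase, varied widely. It was at 4.57, 11 and 12.3 FPKM in mock HMLE-Twist, 4.67, 5.68 and 7.1 with salinomycin, 9.54, 17.3 and 26.2 in mock HMLE-pBp, and 29, 35.7 and 46 with salinomycin. Every treated HMLE-pBp library was above every mock one, and the HMLE-Twist groups overlapped. The CA9 change of 1.10 ± 0.36 in HMLE-pBp had an adjusted p of 0.0508, and 0.00184 with the replicate block. In HMLE-Twist it was -0.51 ± 0.36 (adjusted p = 0.329, and 0.0427 with the block), and the difference was -1.61 ± 0.51 (adjusted p = 0.0551, and 0.00214 with the block). Without HMLE-Twist mock replicate 1 the difference was -2.01 and was called.

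NDRG1, a stress-responsive gene, was at 31.7, 51.5 and 52.3 FPKM in mock HMLE-Twist, 62.6, 48.7 and 66.6 with salinomycin, 183, 161 and 218 in mock HMLE-pBp, and 317, 263 and 313 with salinomycin. The HMLE-pBp groups did not overlap and the HMLE-Twist groups did. NDRG1 rose by 0.67 ± 0.19 (adjusted p = 0.0276) in HMLE-pBp. This call ended without mock replicate 1 or 2 or treated replicate 1 or 3 of that line (adjusted p from 0.0585 to 0.106). KDM3A, a histone demethylase that HIF induces, rose from 8.11 ± 0.34 to 10.3 ± 0.863 FPKM (SD, n = 3) in HMLE-Twist (0.31 ± 0.09, adjusted p = 0.0309) and from 4.81 ± 0.217 to 7.76 ± 0.96 FPKM in HMLE-pBp (0.59 ± 0.09, adjusted p = 0.00167). The HMLE-Twist call ended without mock replicate 2 or 3 or treated replicate 1 or 3 of that line (adjusted p from 0.0571 to 0.126). ADM, which encodes the vasodilator adrenomedullin, and ANKRD37 were not called in either line, with group means of 14.5 to 21.6 and 2.44 to 4.93 FPKM.

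Under mock treatment 27 of the 34 genes differed between the lines, 20 higher and 7 lower in HMLE-Twist, against 73.3% of all tested genes called (36.1% higher and 37.2% lower). The total share called was thus near the background, and the share higher in HMLE-Twist was 58.8%. The lower chain had 6 of 8 genes higher, with a median of 1.06. ENO2 was higher by 2.81 ± 0.14 (adjusted p = 3.13e-09), BNIP3 by 2.63 ± 0.13 (adjusted p = 1.79e-09), BNIP3L by 2.59 ± 0.13 (adjusted p = 2.37e-09), HIF1A by 1.62 ± 0.12 (adjusted p = 7.92e-08) and GAPDH by 1.00 ± 0.08 (adjusted p = 3.36e-07). Lower in HMLE-Twist were VEGFA at -2.45 ± 0.17 (adjusted p = 5.17e-08), NDRG1 at -2.05 ± 0.19 (adjusted p = 8.07e-07), SLC2A1 at -1.77 ± 0.14 (adjusted p = 1.8e-07), CA9, PDK3, PFKP and EGLN3. EGLN3 and PDK3 had passed the filter only with the help of HMLE-pBp, where they are higher. Their calls here and under salinomycin thus followed from the filter and are no result. Both genes stay in the counts of differing and lower genes given for mock and for salinomycin. HIF targets were thus found on both sides: of the 8 other targets, 4 were higher and 3 lower. The CA9 difference of -0.86 ± 0.36 (adjusted p = 0.0471) came from groups that overlapped. It was -0.45 (adjusted p = 0.228) without HMLE-Twist mock replicate 1 and -0.53 (adjusted p = 0.205) without mock HMLE-pBp replicate 3, and it lost its call without any of 5 further libraries (HMLE-Twist treated replicates 1, 2 and 3, mock HMLE-pBp replicate 2 and treated HMLE-pBp replicate 2, adjusted p from 0.0531 to 0.102). The PFKP call ended without HMLE-Twist mock replicate 1 or 2 or mock HMLE-pBp replicate 3 (adjusted p from 0.0617 to 0.0781).

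With salinomycin 23 of the 34 genes differed between the lines, 16 higher and 7 lower in HMLE-Twist. Of all tested genes 63.4% did, 31.4% higher and 32% lower, against 47.1% and 20.6% of the members. The distance between the lines was smaller in size under salinomycin than under mock for 26 of the 34 genes, which also held for 66.9% of all tested genes. PFKP, PFKFB4, ALDOC, LDHA, PDK1 and ANKRD37 were called under mock and not under salinomycin. PFKFB3 (0.68 ± 0.14, adjusted p = 0.000934) and ALDOA (-0.34 ± 0.11, adjusted p = 0.0174) were called under salinomycin and not under mock, and 21 genes were called in the same direction under both. ALDOC went from 2.01 ± 0.14 under mock to -0.26 ± 0.14 (adjusted p = 0.118) under salinomycin. CA9 went the other way, to -2.47 ± 0.36 (adjusted p = 6.64e-05), with no overlap between the treated groups. The ALDOA call ended without treated HMLE-Twist replicate 2 (adjusted p = 0.0628), and that of ENO1 (0.31 ± 0.10, adjusted p = 0.0144) without treated HMLE-pBp replicate 3 (adjusted p = 0.051). The mock and salinomycin comparisons of the lines, the 2 responses and their difference all draw on the same 12 libraries.

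**Figure D4:**
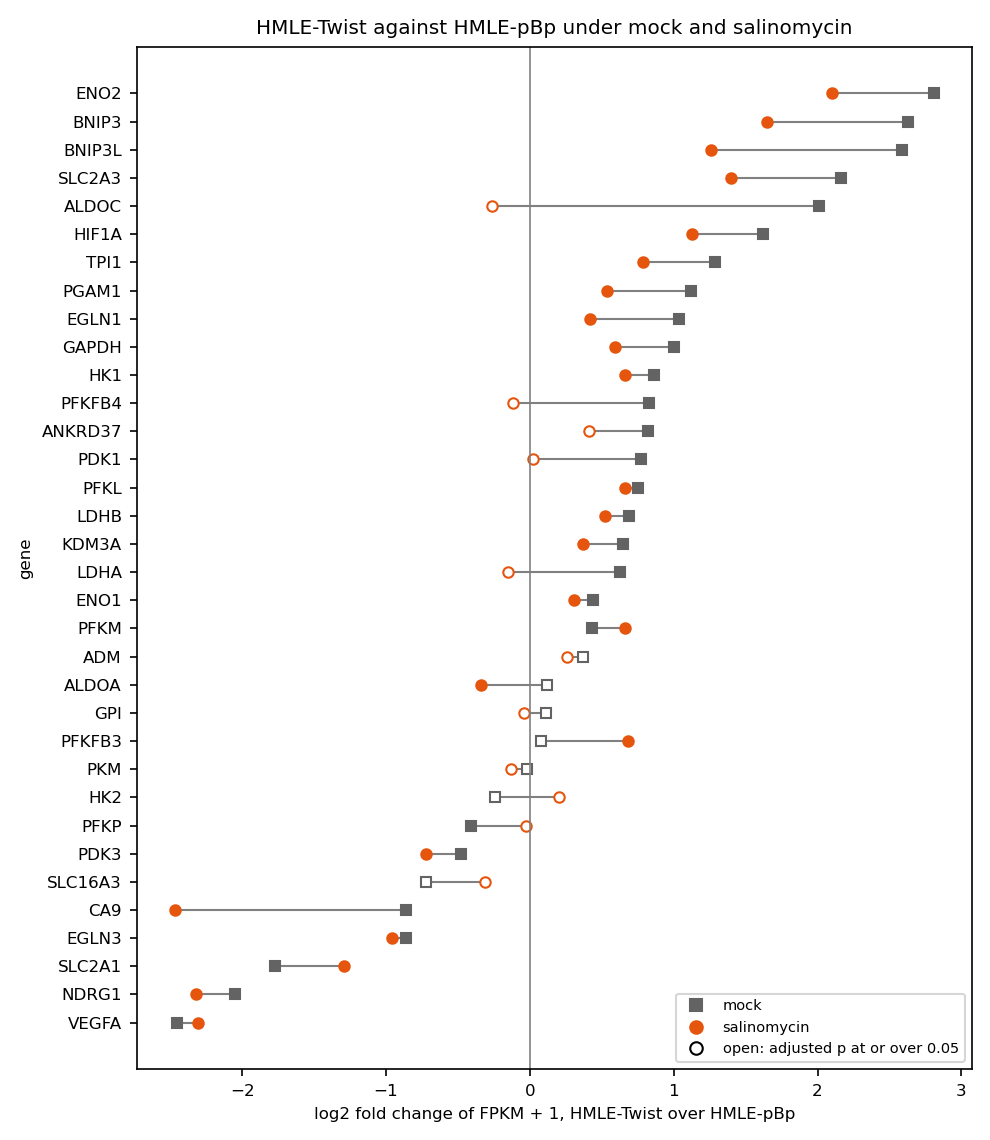
Log2 fold change of FPKM + 1 of HMLE-Twist over HMLE-pBp for each gene under mock (squares) and salinomycin (circles), ordered by the mock value, with open symbols where the adjusted p was not under 0.05. ALDOC, LDHA, PDK1 and PFKFB4 move from above 0 to near 0, and CA9 moves further below 0.

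The balance within related genes was described as the share of the first gene in their summed FPKM (mean ± SD, n = 3). ALDOC made up 10.1 ± 0.853% of the aldolase sum with ALDOA in mock HMLE-Twist and 5.79 ± 0.797% with salinomycin, against 2.73 ± 0.215% and 5.47 ± 0.317% in HMLE-pBp, so the treated lines came to similar shares. LDHA made up 58.7 ± 1.23% and 58.7 ± 0.797% of the lactate dehydrogenase sum in mock and treated HMLE-Twist, and 59.7 ± 2.06% and 69.3 ± 1.83% in HMLE-pBp. HK2 took 12.7 ± 1.84% and 20.5 ± 2.12% of the hexokinase sum in HMLE-Twist, and 24.2 ± 1.31% and 26.2 ± 0.908% in HMLE-pBp. SLC2A1 held 73.7 ± 2.86% and 63.3 ± 2.26% of the transporter sum in HMLE-Twist, and 98.2 ± 0.205% and 92.1 ± 2.49% in HMLE-pBp. ENO2 stayed a minor enolase at 2.58 ± 0.205% and 3.43 ± 0.242% in HMLE-Twist, and 0.405 ± 0.0275% and 0.935 ± 0.13% in HMLE-pBp. The lengths used for ENO1, ALDOA and HK2 were 1.35, 1.34 and 1.19 times the closest reference transcript. Another length would multiply the ratio of the paired genes by the same factor in all groups. The shares themselves would move by unlike amounts, so their absolute values are uncertain.

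**Figure D5:**
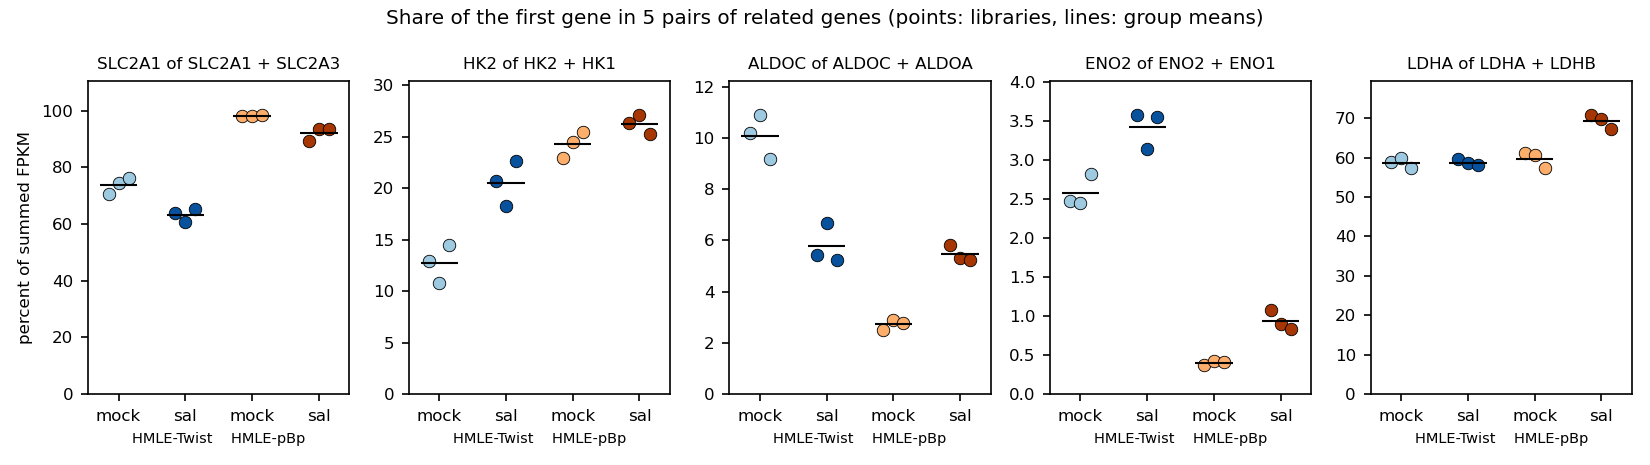
Share of the first gene in the summed FPKM of 5 sets of related genes, in percent from 0, with a point per library and lines for group means. The LDHA share rises in HMLE-pBp and not in HMLE-Twist, and the ALDOC shares of the treated lines meet.

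Further genes of the same pathways were read from lists that do not hold the 34 genes. Of 42 tested genes of the HIF pathway and its other targets, 15 rose and 5 fell in HMLE-Twist, and 15 rose and none fell in HMLE-pBp, with medians of 0.13 and 0.19. Over all tested genes 12.8% rose and 13.5% fell in HMLE-Twist, and 9.72% and 9.37% in HMLE-pBp, which is the background for this and the following lists. By the difference test 6 had a lower response in HMLE-Twist and 1 a higher one, against 6.62% and 6.98% of all genes. The higher one was BHLHE41, a relative of BHLHE40. BHLHE41 rose by 0.86 ± 0.09 in HMLE-Twist and differed by 0.75 ± 0.13 (adjusted p = 0.00389). Its levels were low, at 0.296 ± 0.0926 and 1.35 ± 0.215 FPKM in mock and treated HMLE-Twist. In HMLE-pBp they were 2.43 ± 0.138 and 2.7 ± 0.0838 FPKM. KDELR3, a receptor that returns proteins to the endoplasmic reticulum, rose most of those named by the list rule, from 25 ± 2.74 to 146 ± 8.09 FPKM in HMLE-Twist and from 8.71 ± 0.652 to 74.9 ± 13.7 FPKM in HMLE-pBp. STC1 and STC2, which encode secreted stanniocalcins, rose in both lines, STC1 by 1.64 ± 0.22 and 0.90 ± 0.22 and STC2 by 1.18 ± 0.19 and 0.99 ± 0.19 in HMLE-Twist and HMLE-pBp. BHLHE40, a transcriptional repressor, rose by 1.33 ± 0.14 and 2.32 ± 0.14, a difference of -0.99 ± 0.19 (adjusted p = 0.00757). PLOD2, a collagen lysyl hydroxylase, differed by -0.74 ± 0.16 (adjusted p = 0.0134) and LOXL2, which crosslinks collagen, by -0.83 ± 0.24 (adjusted p = 0.0402). EPAS1, which encodes the other main HIF alpha subunit, rose in HMLE-Twist (0.48 ± 0.11, adjusted p = 0.00626) and was at 22.7 ± 1.23 and 23.4 ± 0.513 FPKM in HMLE-pBp. ARNT was not called in either line, and both are named for their role, outside the rule for these lists.

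Of 26 tested genes among 39 other genes of glycolysis and pyruvate use, 3 rose and 3 fell in HMLE-Twist, and 3 rose and 2 fell in HMLE-pBp, counts near the background in both lines. PGK1, the phosphoglycerate kinase that HIF induces, rose from 198 ± 9.09 to 304 ± 36.6 FPKM in HMLE-pBp (0.61 ± 0.10, adjusted p = 0.00211) and was at 390 ± 46.5 and 360 ± 11 FPKM in HMLE-Twist, a difference of -0.72 ± 0.14 (adjusted p = 0.00908). In the pentose phosphate pathway 1 of 8 genes rose and 2 fell in HMLE-Twist, and 3 rose and 1 fell in HMLE-pBp. PGD, its second dehydrogenase, fell by 0.35 ± 0.07 in HMLE-Twist and rose by 0.51 ± 0.07 in HMLE-pBp, a difference of -0.85 ± 0.10 (adjusted p = 0.000392). Of 13 tested genes of glucose sensing and glycogen, 2 rose and 3 fell in HMLE-Twist, and 5 rose and none fell in HMLE-pBp. ARRDC3, an arrestin-like relative of TXNIP, rose by 0.93 ± 0.16 in HMLE-pBp and differed by -1.31 ± 0.23 (adjusted p = 0.00494). GBE1, the glycogen branching enzyme, went from 74.9 ± 6.53 to 62.6 ± 1.17 FPKM in HMLE-Twist and from 15.2 ± 0.487 to 20.3 ± 1.15 FPKM in HMLE-pBp, a difference of -0.65 ± 0.11 (adjusted p = 0.00403). Of 4 tested genes of gluconeogenesis and anaplerosis, PCK2, the mitochondrial carboxykinase, rose in both lines, by 1.39 ± 0.33 and 1.30 ± 0.33, and ME1, a malic enzyme, fell in HMLE-Twist by 0.48 ± 0.15.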

How the data were processed

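Stranded mRNA libraries from 750 ng of total RNA per sample were sequenced in paired mode, per the labels' protocols. The submitters' processing notes name DESeq2 1.1.0 and build hg19. No source used here states the aligner, the counting tool or the gene models. The mock tables hold FPKM values as deposited by the authors, scaled within each table of 3 libraries. The salinomycin tables, whose names also say FPKM, hold log2 values of scaled counts, per their values, with the spread between libraries shrunk by the authors. The members, lists and tests were chosen with earlier results of these data known.

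Each mock FPKM value was a whole multiple of what 1 read is worth for its gene, which gave reads and gene lengths (99.0% of 12910 genes with over 100 reads had a whole length at once). The log2 values were turned back into reads with a penalised negative binomial model, and 98.6% (HMLE-Twist) and 96.1% (HMLE-pBp) of values fell within 0.1 of a whole read. For 421 genes the reads were not settled, and these were left out. All 34 members were settled. FPKM was rebuilt for all libraries with median-of-ratios size factors and the recovered lengths, of which 17 of the members' 34 lie within 5% of a GENCODE transcript. Genes with at least 1 FPKM in 3 of 12 libraries were tested with limma 3.58.1 (R 4.3.3) on log2(FPKM + 1), with the 4 groups in 1 model, a variance trend, no covariate and Benjamini-Hochberg adjustment. A fold change on this scale understates the change of low genes. With 3 libraries a group, an exact permutation test cannot reach 0.05, so none was run. The steps were tested on simulated data.

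Same-numbered mock and treated libraries deviated together in both lines (correlation of deviations from the group means 0.431 to 0.719 in HMLE-Twist and 0.224 to 0.603 in HMLE-pBp), so the replicate number was also used as a block within each line. The numbers come from the sample titles. Across lines the lowest correlation was 0.043, and no pairing was assumed there. Values in every library are given for members that were called in a comparison and among its 5 largest changes, and for HIF1A, VEGFA, CA9, GAPDH, LDHA, SLC2A1, HK2 and PDK1 in any case. Other genes come from fixed lists, at most 6 a list, with a called change of at least 0.58 on the log2 scale. Other pseudocounts, filters, scalings, lengths, tests and each library left out in turn were tried. Intervals cover the spread between these libraries only. A further leukocyte marker is not reported here.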

Additional observations from a re-analysis of the deposited data

Results flagged for a closer look

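The salinomycin response differed between the lines, by the test of the difference itself (limma, HMLE-Twist minus HMLE-pBp, log2 scale), for 11 of the 34 genes, all with a lower response in HMLE-Twist. The differences were -2.27 for ALDOC, -1.33 for BNIP3L, -0.99 for BNIP3, -0.95 for PFKFB4, -0.78 for LDHA, -0.76 for SLC2A3, -0.75 for PDK1, -0.71 for ENO2, -0.61 for EGLN1, -0.59 for PGAM1 and -0.41 for GAPDH. SLC2A3 rose in both lines and less in HMLE-Twist. ALDOC, LDHA and EGLN1 changed in opposite directions, PGAM1 passed the threshold of the salinomycin test in HMLE-Twist and not in HMLE-pBp, GAPDH passed it in neither line, and PFKFB4, ENO2, PDK1, BNIP3 and BNIP3L passed it in HMLE-pBp and not in HMLE-Twist. The differences of SLC2A3, ENO2 and GAPDH lost their calls when single libraries were left out. No group had enough libraries for a test of single outlying samples.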

How the results depend on the processing

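With the replicate block within each line, which the pairing of mock and treated libraries allows, 14 members were called in HMLE-Twist in place of 9 and 18 for the difference in place of 11 (over all genes, 3891 in place of 1628). A replicate block shared by the 4 groups also gave 18 for the difference. In the comparisons between lines, where the libraries share only a number, the shared replicate block called 28 members under mock and 23 under salinomycin. The block ended no call. Leaving out 1 library at a time gave 7 to 11 members in HMLE-Twist, 11 to 19 in HMLE-pBp, 9 to 15 for the difference, 25 to 29 between the lines under mock and 23 to 24 under salinomycin. No value of a called member changed sign. Of 1646 single values under the other settings, 1611 kept their side of the threshold, 19 lost their call and 16 gained one. The calls lost were EGLN1 (TPM scaling, only the groups compared) and KDM3A (only the groups compared) in HMLE-Twist, LDHB (voom, no filter, no trend, only the groups compared, upper-quartile scaling) and NDRG1 (no filter) in HMLE-pBp, GAPDH (no filter, no trend, upper quartile) and ENO2 (no filter) for the difference, and PFKP, CA9 and ALDOA between the lines. The causes were not tested. A fit of only the groups compared was not run for the difference, which uses all 4. Depth limits EGLN3 in HMLE-Twist and ANKRD37. For the salinomycin results whose call the block changed, the adjusted p over all settings ranged in HMLE-Twist from 0.0101 to 0.302 for PFKP, 0.0215 to 0.468 for PFKFB3, 0.0136 to 0.189 for ENO2, 0.00563 to 0.158 for HIF1A and 0.0314 to 0.632 for CA9. In HMLE-pBp it ranged from 0.0389 to 0.345 for SLC2A1, 0.0337 to 0.195 for HK1, 0.0131 to 0.236 for HK2, 0.0239 to 0.301 for PFKFB3, 0.00912 to 0.233 for GAPDH and 0.000835 to 0.166 for CA9. For the difference it ranged from 0.0342 to 0.252 for SLC2A1, 0.0164 to 0.244 for HK2, 0.00993 to 0.147 for PFKFB3, 0.00116 to 0.151 for ALDOA, 0.00135 to 0.161 for TPI1, 0.0107 to 0.147 for HIF1A and 0.00119 to 0.123 for CA9.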
